A study of Physcomitrium patens with 3 samples.

Results

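The wild-type protonema library of a double-stranded RNA sequencing series in the moss Physcomitrium patens was described by itself, without the mutants. Its members are the loci with at least 1 wild-type read, called detected loci here. There were 11570 of them among the 39975 loci listed for the series, or 28.9%, and 16184 loci had a read in at least 1 of the 3 libraries. The members were thus chosen by their own read counts. Read numbers, ranks and densities of the detected loci are a description with no test. The 28405 loci without a wild-type read are set beside them for properties that the rule did not use, such as length and position. An exception is the share whose nearest listed locus was detected, which applies the same rule to the neighbour.

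The series also holds 1 library each of the rdr2 and rdr6 mutants, which serve here only for the count of loci with a read in any library. The wild-type plants carried no stated transgene or treatment. They were protonemata of 10 days, grown on BCD medium over cellophane with 50 mM ammonium tartrate at 22 °C under 16 h of light and 8 h of dark. There was 1 wild-type library, and whether it pooled several cultures is not stated in the labels, so no value has a replicate check. The loci carry cluster numbers and no gene names, so the tissue could not be checked against marker genes.

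Protonemata are the branched filaments that grow from a moss spore, and most of their cells are rich in chloroplasts. RNA becomes double-stranded when a transcript folds back on itself, when opposite strands are both transcribed, or when an RNA-dependent RNA polymerase copies a single strand. Organelle genomes of land plants are transcribed over much of their length on both strands, and structured RNAs such as ribosomal RNA hold long base-paired stretches. Dicer proteins cut double-stranded RNA into small RNAs that direct silencing. The assay removes single strands with a nuclease and sequences what remains, so a read marks a protected stretch and does not say which of these routes made it.

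The library held 6992269 reads in all, as computed from the ratio of the deposited count to the deposited RPM value (reads scaled to a common library total). Of these, 5926254 reads, or 84.8%, fell in the listed loci. A single read was worth 0.143 RPM. For a count of 0, a floor of 3 reads, or 0.429 RPM, was set, and no ratio given here rests on it. It is a one-sided limit and smaller than the two-sided Poisson bound of 3.69 reads. Intervals below are exact 95% intervals, Clopper-Pearson for shares and Poisson for single counts. They cover counting error only, and reads copied by PCR are not independent molecules. Intervals for shares of loci treat each locus as independent, although detected loci often lie next to each other.

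Plastid loci were few, long and dense in reads, mitochondrial loci were fewer in reads, and nuclear loci made up nearly the whole list. All 17 listed plastid loci were detected, as were 46 of the 51 mitochondrial loci (90.2%) and 11507 of the 39907 nuclear loci (28.8%). The plastid loci took 27.9% of locus reads (27.9 to 28.0), the mitochondrial loci 1.38% (1.37 to 1.39) and the nuclear loci 70.7% (70.6 to 70.7). In deposited units these are 236849 RPM on the plastid genome, 11662 RPM on the mitochondrial genome and 599033 RPM on the nuclear scaffolds. In bulk tissue, fewer organelles or cells and less RNA in each cannot be told apart, so these shares describe the extracted RNA and not its level per cell.

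The typical locus differed between the sequence classes. Plastid loci had a median length of 5249 bp (quartiles 1372 and 11037) and a median of 7963 reads, with no locus under 65 reads. The 46 detected mitochondrial loci had a median of 957.5 bp (266.75 and 2696.25) and 94.5 reads. Nuclear detected loci had a median of 30 bp (16 and 179) and 3 reads (quartiles 1 and 10). The median read density was 3007 reads per kb of locus on the plastid genome, 105 on the mitochondrial genome and 66.7 on the nuclear scaffolds. That nuclear median equals 1 read on a locus of 15 bp, the most frequent locus length. Among nuclear loci longer than 30 bp the median was 41.7 reads per kb. Pooling reads and lengths gave 13997, 972 and 2180 reads per kb for plastid, mitochondrial and nuclear loci, so the nuclear value passed the mitochondrial one once the few abundant loci counted by their reads.

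**Figure D1:**
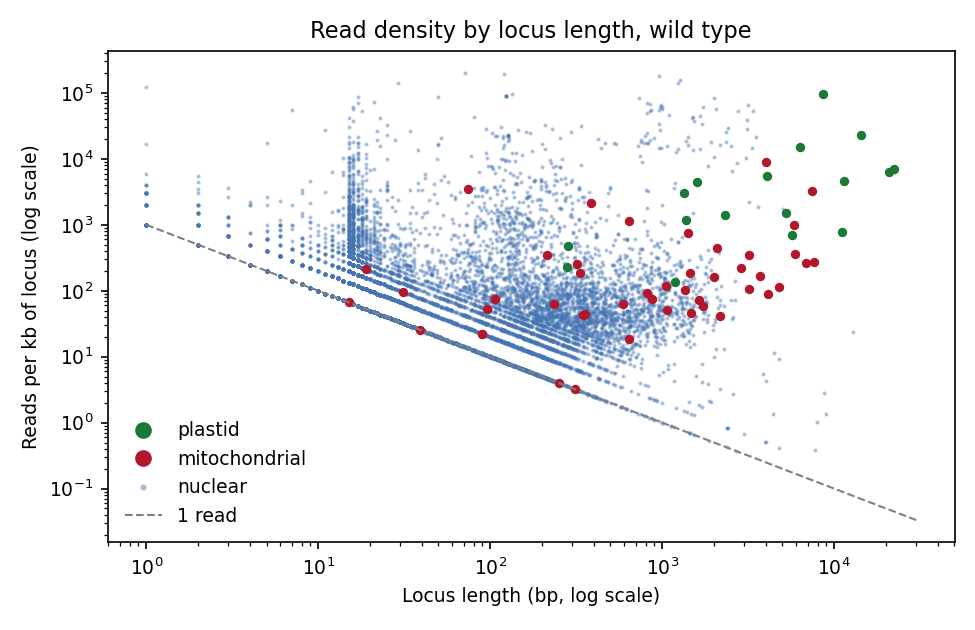
Read density (reads per kb of locus, log scale) against locus length (bp, log scale) for the 11570 detected loci, with plastid loci in green, mitochondrial in red and nuclear in blue, and the density of a single read as a dashed line. Plastid loci lie at the long end with a median of 3007 reads per kb, whereas many nuclear loci sit on the line of 1 read.

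Loci covered nearly the whole plastid genome, yet read density along it was very uneven. From the first listed base (129) to the last (122757), 96.5% lay inside a locus, and the 16 gaps between loci were 205 to 444 bp. Density ran from 136 reads per kb at Cluster_39922 (106214 to 107396) to 95381 at Cluster_39920 (86071 to 94734), a 701-fold range. Steps between neighbours were sharp. Cluster_39920 held 826377 reads, or 49.9% of plastid reads, while Cluster_39919 just before it (85348 to 85626) had 65 reads and a density 409-fold lower. Cluster_39921 just after it (94952 to 105988) had 8565 reads over 11037 bp, a density 123-fold lower. Cluster_39923 (107750 to 122031) stood apart in the same way, with 333638 reads between Cluster_39922 with 161 and Cluster_39924 with 136.

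The longest loci of the library lay on the other side of the plastid genome. Cluster_39914 (45351 to 67525), the longest of all at 22175 bp, had 155057 reads, and Cluster_39913 (24196 to 45144) had 132618. Their densities of 6992 and 6331 reads per kb were close to each other. Cluster_39915 (67740 to 73436), which follows Cluster_39914 after 214 bp, had 3956 reads and a density 10.1-fold below it. Gene names cannot be given for these loci, because no annotation of the build in the files was at hand.

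On the mitochondrial genome the loci covered 83.5% of the stretch between the first listed base (199) and the last (100614), and reads were concentrated in neighbouring loci. Cluster_39942 (33493 to 37523) had 36384 reads and Cluster_39941 (25756 to 33211), which ends 281 bp before it, had 24238. Together they held 74.3% of mitochondrial reads. Cluster_39943 (37919 to 38229), the next locus, had 1 read on 311 bp. The density of Cluster_39942 was 2807-fold that of Cluster_39943, with a counting interval from 504 to 110878 because of the single read. Cluster_39962 (80461 to 86286) followed with 5741 reads and Cluster_39957 (63822 to 69747) with 2122. The longest mitochondrial locus, Cluster_39930 (7743 to 15394), had 2082 reads and 272 reads per kb. At the low end 10 detected mitochondrial loci had fewer than 10 reads, and the 5 without a read had a median length of 20 bp.

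Most detected loci held few reads, and a small number held nearly all of them. A single read was found at 3833 loci, 33.1% of those detected, and 2 to 9 reads at another 4662. Only 80 loci had 10000 reads or more. These 80 were 7 plastid, 2 mitochondrial and 71 nuclear loci, and they carried 90.4% of locus reads. The 14 loci with most reads held 50% of the total, 79 loci held 90%, and 1252 loci held 99%. The top 1% of detected loci, 116 loci, took 93.7% of reads (93.7 to 93.8).

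Reads were also concentrated within each sequence class. Of the plastid loci 2 held 50% of the class total and 5 held 90%. Of the mitochondrial loci 2 and 7 did so, and of the nuclear loci 18 and 84. The top locus took 49.9% of plastid reads, 44.6% of mitochondrial reads and 4.89% of nuclear reads.

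**Figure D2:**
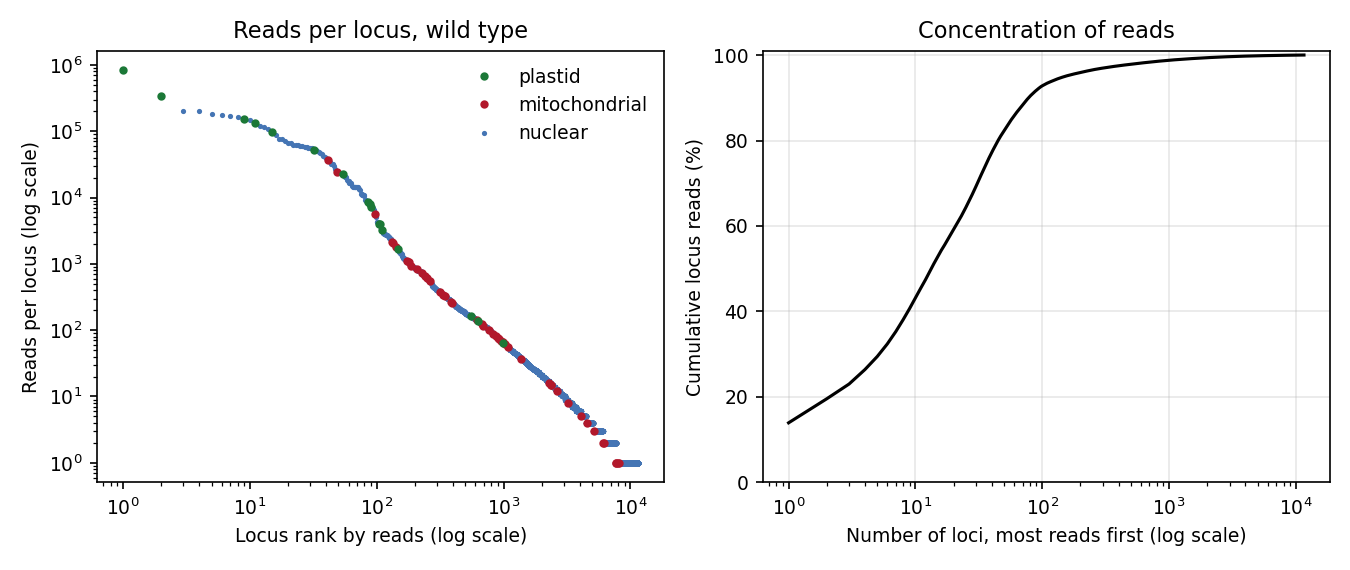
Left, reads per locus (log scale) against the rank of the locus by reads (log scale), with plastid loci in green, mitochondrial in red and nuclear in blue. Right, cumulative percentage of locus reads against the number of loci taken in order (log scale): 14 loci reach 50% and 79 reach 90%.

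Among the 10 loci with most reads, 3 were plastid and 7 nuclear. The nuclear ones lay on 5 scaffolds, and 6 of the 7 were on scaffolds whose listed loci all end within 60 kb. Cluster_39122, Cluster_39121 and Cluster_39120 on scaffold_699 (6871 to 10023, 4995 to 6256 and 1158 to 4519) had 204809, 200556 and 180592 reads. Cluster_39800 (scaffold_4104, 7802 to 9028) had 174191 reads, Cluster_39201 (scaffold_758, 1 to 959) 170920 and Cluster_38944 (scaffold_571, 14 to 2784) 147692. The exception was Cluster_15461 (scaffold_73, 18441 to 20433), on a scaffold of over 1 Mb, with 165433 reads. Counts of this size have Poisson intervals within 1% of the value, for example 203923 to 205698 for Cluster_39122. It was not tested whether reads of a repeat were divided among them.

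The most abundant nuclear loci lay on short scaffolds and often at their very start. The largest end coordinate among the listed loci of a scaffold, called its extent here, is a lower bound of the length of the scaffold. Of the 100 nuclear loci with most reads, 62 lay on scaffolds with an extent of up to 100 kb, against 288 of the other 11407 detected nuclear loci (2.52%). Their first base was within 50 bp of the scaffold start in 20 of the 100, against 15 of the other 11407 (0.131%). These 100 loci carried 91.6% of nuclear reads and had a median length of 960.5 bp, against 30 bp for the others. Among the 50 with most reads, 40 were on such short scaffolds, and 1 was on a scaffold of over 1 Mb.

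Reads and detected loci were thus divided in opposite ways over scaffold sizes. Scaffolds with an extent of up to 10 kb held 144 detected loci and 29.2% of nuclear reads, and those of 10 to 100 kb held 206 loci and 44.5%. The 337 scaffolds of 100 kb to 1 Mb held 3981 detected loci and 16.8% of nuclear reads. The 157 scaffolds over 1 Mb held 7176 detected loci, or 62.4% of them, and 9.49% of nuclear reads, of which Cluster_15461 alone gave 41.6%. Without that locus the last share was 5.76%.

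Detection was similar over scaffold sizes, unlike read density. The share of listed loci with a read was 28.3%, 28.1%, 28.7% and 28.9% in the 4 extent classes from small to large. Density was compared among loci above 200 and up to 1000 bp to narrow the range of length. Their median lengths were 421.5, 380.5, 348.5 and 342 bp from small to large scaffolds, so length still differed. The median density was 1338 reads per kb on scaffolds of up to 10 kb (36 loci, quartiles 122 and 17396) and 224 on those of 10 to 100 kb (54 loci, quartiles 45.8 and 5534). It was 40.4 on scaffolds of 100 kb to 1 Mb (838 loci, quartiles 17.4 and 87.7) and 35.6 on those over 1 Mb (1357 loci, quartiles 16.7 and 75.2). The lower quartile of the smallest scaffolds lay above the upper quartile of both large classes, while the class of 10 to 100 kb overlapped them.

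Many scaffolds rich in reads fell near particular sizes, a pattern picked out after the values were seen. There were 36 scaffolds with at least 10000 reads. Of these, 16 had an extent between 8 and 10 kb, among 74 scaffolds in that window, and together they held 27.5% of nuclear reads. Another 6 had an extent between 35 and 38 kb, among 16 scaffolds, and held 28.4%. The other 58 scaffolds of the first window had 4655 reads in all, at most 4099 on any of them. The other 10 of the second had 34 reads in all, at most 14 on any of them.

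**Figure D3:**
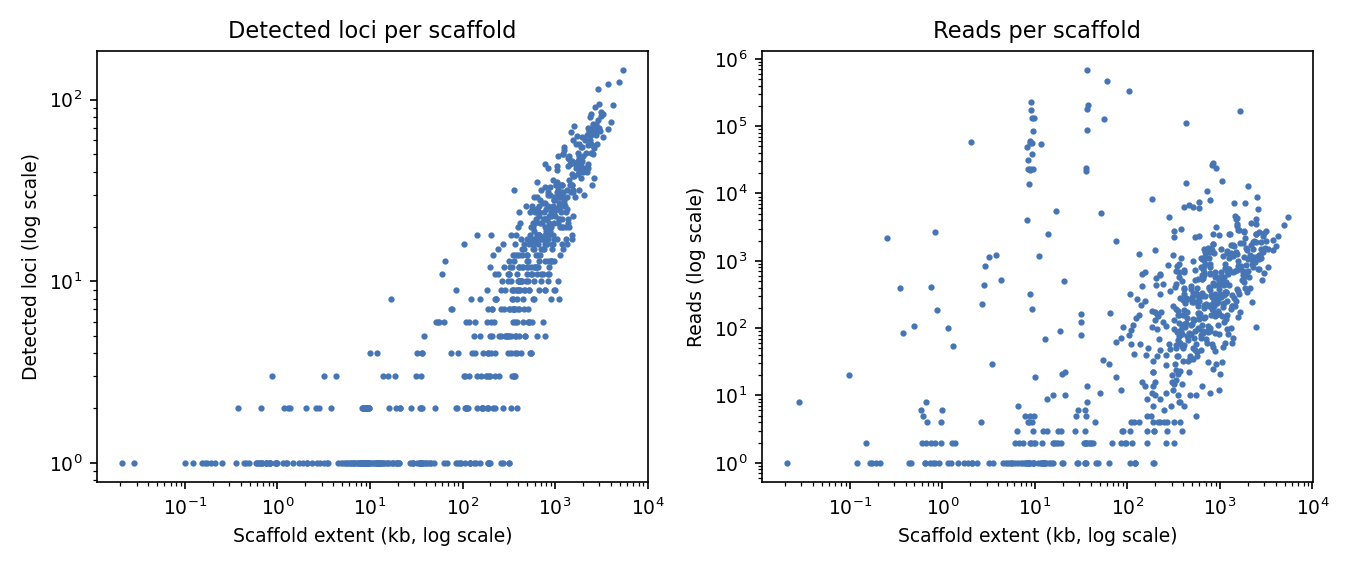
Detected loci (left, log scale) and reads (right, log scale) per nuclear scaffold against scaffold extent (kb, log scale), the largest end coordinate of its listed loci, for the 688 scaffolds with a detected locus. The number of detected loci follows extent, whereas the highest read numbers do not. Of the 36 scaffolds with at least 10000 reads, 22 stand in columns at 8 to 10 kb and 35 to 38 kb, and 14 lie elsewhere. Over the 157 scaffolds beyond 1 Mb, Spearman's rho with extent was 0.79 for detected loci and 0.51 for reads.

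Reads at every listed locus were rare among scaffolds with several loci. Of the 552 scaffolds with at least 5 listed loci, 4 had a read at each, 38 had none, and the median share of detected loci was 27.6%. Those 4 were scaffold_571, scaffold_557, scaffold_802 and scaffold_742, with 11, 16, 5 and 6 loci and 471769, 330580, 203901 and 129770 reads. Together they held 27.1% of nuclear reads on 38 loci.

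scaffold_571 and scaffold_557 show how uneven such a scaffold is inside. On scaffold_571 the 11 loci ran from 8878 reads at Cluster_38947 (22412 to 27476) to 147692 at Cluster_38944. On scaffold_557 the 16 loci ran from 218 reads at Cluster_38917 (93982 to 95088) to 74967 at Cluster_38911 (45533 to 47198). Density on scaffold_557 was 197 reads per kb at Cluster_38917 and 70484 at Cluster_38908 (41935 to 42755). Highest in reads of all scaffolds was scaffold_699, with 673248 reads at 4 of its 5 loci, or 16.1% of nuclear reads.

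Several abundant loci matched each other in length and in reads. Among the 153 nuclear loci longer than 30 bp with at least 1000 reads, 34 shared their exact length with another of the 153. In 3 groups the counts also lay within 5% of the next member. How often unrelated loci of such lengths share a length was not tested. The first group was 4 loci of 124 bp with 10987 to 11124 reads: Cluster_38954 (59861 to 59984), Cluster_38949 (34710 to 34833) and Cluster_38951 (37874 to 37997) on scaffold_571, and Cluster_39780 on scaffold_3523 (389 to 512). The whole group spread by 1.25%. A second group was 4 loci of 127 bp with 2783 to 2941 reads: Cluster_38910 (45104 to 45230) and Cluster_38906 (33571 to 33697) on scaffold_557, Cluster_39166 on scaffold_742 (1141 to 1267) and Cluster_34993 on scaffold_334 (520 to 646). Cluster_38912 (scaffold_557, 47985 to 48111), also of 127 bp, had 2387 reads and fell outside that limit. The last was a pair of 253 bp on scaffold_93, Cluster_18260 (4046 to 4298) and Cluster_18274 (208072 to 208324), with 1926 to 1938 reads. The files hold no sequences, so it was not tested whether such loci are copies of a repeat among which reads were shared.

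Among large scaffolds, reads varied more widely than the number of detected loci. Over the 157 scaffolds beyond 1 Mb the number of detected loci per Mb of extent had a median of 24.4 (quartiles 19.9 and 28.6). It was lowest on scaffold_148 with 8 of 64 listed loci and highest on scaffold_83 with 72 detected loci, or 7.33 and 45.4 per Mb. The most detected loci in absolute number were on scaffold_1 (145 of 451 listed), scaffold_2 (125 of 408) and scaffold_6 (122 of 361), with 4530, 3394 and 1452 reads. Reads on these large scaffolds had a median of 847 per scaffold and ran from 21 to 166147. A single locus held a median of 34.5% of the reads of its scaffold. On scaffold_73 that share was 99.6%, since the 41 detected loci other than Cluster_15461 had 714 reads together. Across these 157 scaffolds Spearman's rho with extent was 0.79 for detected loci and 0.51 for reads, as a description, since scaffolds share the library.

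On scaffolds over 1 Mb, the loci with most reads after Cluster_15461 were far smaller in count. Cluster_12350 (scaffold_53, 302733 to 303457) had 11197 reads and Cluster_24075 (scaffold_149, 1016535 to 1016743) had 6903. Cluster_7534 (scaffold_27, 1816376 to 1819988) had 6714 reads spread over 3613 bp, a density of 1858 reads per kb, whereas Cluster_13439 (scaffold_60, 43722 to 43951) had 6479 on 230 bp, a density of 28170. On scaffolds of 100 kb to 1 Mb the leading loci were Cluster_38911 with 74967 reads and Cluster_34997 (scaffold_334, 24720 to 26207) with 61755. These loci were picked after their values were seen.

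Length separated detected loci from the others. Detected loci had a median length of 31 bp (quartiles 16 and 183), against 18 bp (15 and 25) for the 28405 without a read. Loci of 30 bp or less made up 49.9% of the detected and 82.2% of the others. Detection among nuclear loci was 94.7% above 1000 bp (320 of 338) and 74.1% above 200 and up to 1000 bp (2285 of 3082). It was 42.5% at 31 to 200 bp (3129 of 7357) and 19.8% at 30 bp or less (5773 of 29130). A long locus offers more bases to hit, and the part of this in the gradient was not tested.

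At the edge of the membership rule the loci were alike in length. The 3833 loci with 1 read had a median of 18 bp (quartiles 15 and 29), and the 28405 loci with no read also had a median of 18 bp. Loci with 2 reads had a median of 19 bp, with an upper quartile of 63.25 bp. Loci of 10 to under 100 reads had a median of 241 bp, those of 100 to under 1000 reads 251 bp, those of 1000 to under 10000 reads 253 bp and those of 10000 reads or more 1318 bp.

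Reads followed length in the same direction among detected nuclear loci. Loci over 1000 bp were 2.78% of the detected nuclear loci and held 62.6% of nuclear reads. Those above 200 and up to 1000 bp were 19.9% and held 30.04%, those of 31 to 200 bp were 27.2% and held 6.22%, and those of 30 bp or less were 50.2% and held 1.16%. Median reads per locus were 93.5, 14, 4 and 1 in that order. Medians of read density were closer together, at 66.7, 38.3, 42.9 and 105 reads per kb. In the shortest class a single read already gives a high density, so its value has a floor. Over the 5734 detected nuclear loci longer than 30 bp, Spearman's rho of length was 0.51 with reads and -0.06 with density, as a description across loci of 1 library.

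The highest density of any locus in each nuclear length class lay between 140621 and 199873 reads per kb. Cluster_34839 (scaffold_329, 276591 to 276661) had 14191 reads on 71 bp, or 199873 reads per kb, the highest among nuclear loci longer than 30 bp. Next came Cluster_27213 (scaffold_191, 487046 to 487165), with 23031 reads on 120 bp and 191925 reads per kb. Cluster_39201 had 178227 reads per kb over 959 bp. In the class up to 1000 bp it was followed in reads by Cluster_38945 (scaffold_571, 3087 to 4074) with 65485 and Cluster_38953 (scaffold_571, 39781 to 40516) with 61317. Behind these 2 in the class of 31 to 200 bp was Cluster_38948 (scaffold_571, 33892 to 34025), with 12854 reads.

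The longest nuclear locus, Cluster_26593 (scaffold_182, 642869 to 655801), spanned 12933 bp and had 306 reads (Poisson interval 273 to 342), or 23.7 reads per kb. Among loci of 30 bp or less the most reads were at Cluster_33978 (scaffold_306, 138248 to 138276) with 4078 on 29 bp, Cluster_376 (scaffold_1, 4762781 to 4762801) with 1538 on 21 bp and Cluster_14014 (scaffold_63, 1198870 to 1198886) with 1460 on 17 bp. Such counts were exceptions, since 66 of the 5773 detected loci of this class had 100 reads or more and 2909 had 1 read.

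Exact length showed 2 modes in the list, and reads were found mostly in one of them. Listed nuclear loci were most frequent at 15 bp (4772), fell off to 948 at 19 bp, and rose again to 1696 at 23 bp and 1637 at 24 bp. Loci of 14 to 18 bp were detected in 25.9% of cases (3614 of 13939, 25.2 to 26.7). Loci of 21 to 24 bp were detected in 9.86% (567 of 5748, 9.11 to 10.7). The share was 17.3% at 25 to 30 bp (15.9 to 18.8) and 16.0% at 1 to 10 bp (14.8 to 17.3). The loci of 21 to 24 bp thus had the lowest share of these bands, as a description, since neighbouring loci are not independent. By single length the share rose steadily from 23.4% at 15 bp to 32.1% at 18 bp, and was lowest at 24 bp with 7.09% (116 of 1637).

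With a limit of at least 10 reads, the loci of 21 to 24 bp were no longer the lowest band. Such counts were found at 0.603% of loci of 1 to 10 bp, 2.40% of those of 14 to 18 bp, 1.01% of those of 21 to 24 bp and 1.60% of those of 25 to 30 bp. Locus length is not read length. A locus of 1 bp can carry reads, as 51 did, and Cluster_28903 (scaffold_215, 719857) had 125 reads at a single base, so the listed span can be shorter than the reads counted in it. The sources used here do not state which data the list was called from. Only 16184 of the 39975 listed loci had a read in any of the 3 libraries, so these counts alone do not account for the list.

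**Figure D4:**
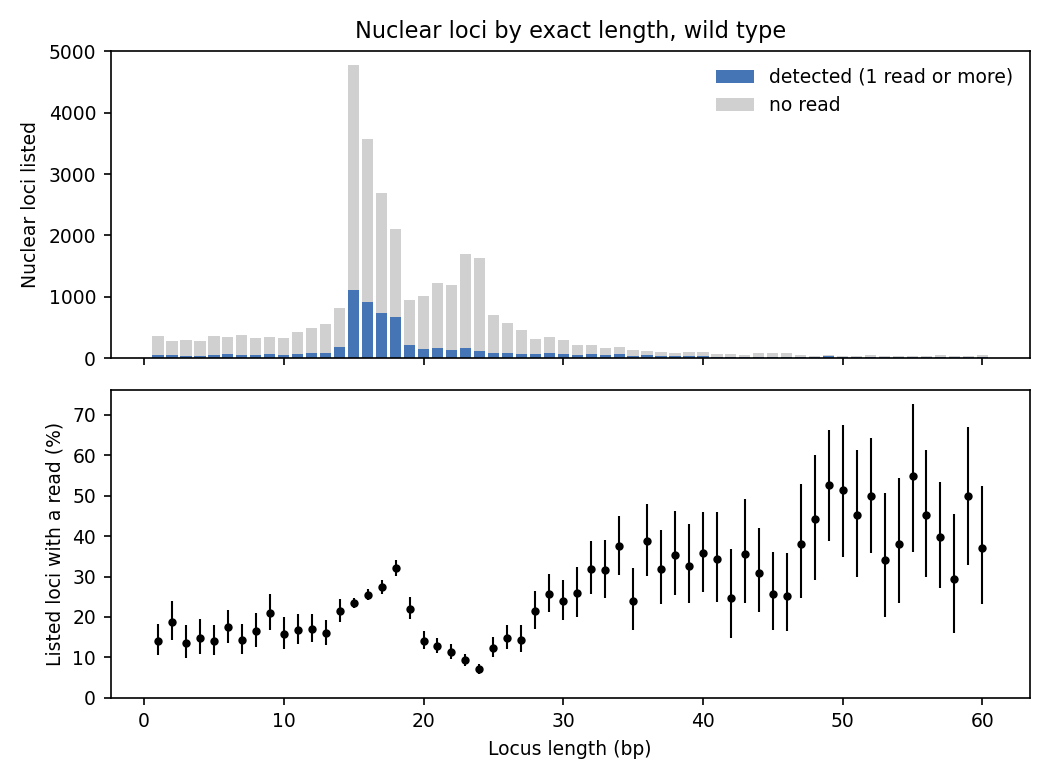
Top, number of listed nuclear loci by exact length (bp), with detected loci in blue and loci without a read in grey. Bottom, percentage of listed loci of each length with at least 1 wild-type read and its exact 95% interval, which covers counting error only and treats loci as independent: detection rises to 32.1% at 18 bp and is lowest at 24 bp, 7.09%.

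Gaps between detected nuclear loci had a short and a long mode, as did gaps between listed nuclear loci without a read. The gap from the end of a detected locus to the start of the next on the same scaffold had a median of 13438 bp (quartiles 774.5 and 52736, 10819 gaps). Among the listed loci without a read the gap to the next such locus had a median of 5620 bp (898.5 and 22105, 27499 gaps). Detected loci are the smaller set, which by itself lengthens their gaps. Gaps within 1 kb made up 28.1% of those of detected loci, 27.1% of those of loci without a read and 33.0% of those between all listed loci. Gaps over 100 kb made up 10.7% of those of detected loci and 1.20% of those of loci without a read. Only 1 gap between detected loci was under 200 bp, and 28 of the 38883 gaps between all listed nuclear loci were.

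**Figure D5:**
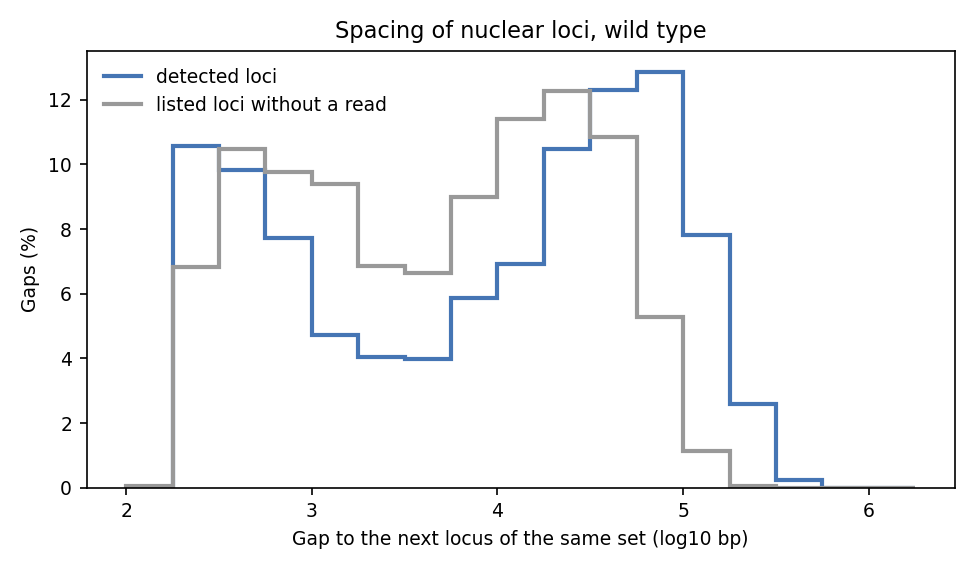
Distribution of the gap to the next locus of the same set on the same scaffold (log10 bp, bins of 0.25), as a percentage of all gaps of the set, for detected nuclear loci (blue) and listed nuclear loci without a read (grey). Detected loci have a mode between 2.25 and 2.5 and another between 4.75 and 5. Loci without a read also have 2 modes, between 2.5 and 2.75 and between 4.25 and 4.5.

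A detected locus was more often next to another detected locus than a locus without reads was. The nearest listed locus on the scaffold was itself detected for 52.3% of detected loci (51.4 to 53.2, 11423 loci with a neighbour) and for 19.9% of those without a read (19.4 to 20.3, 28218 loci). The contrast shrank with distance. Within 1 kb it was 67.5% for detected loci and 15.6% for loci without a read, and at 1 to 10 kb 36.5% for detected loci and 21.8% for loci without a read. Beyond 10 kb it was 30.1% for detected loci (27.9 to 32.4) and 27.8% for loci without a read (26.5 to 29.2), where the intervals overlapped. The shares also differed with length. Where locus and neighbour were both over 30 bp, the share was 87.1% for detected loci and 26.2% for loci without a read. Where both were 30 bp or less, it was 28.7% for detected loci and 16.1% for loci without a read. Neighbours enter these counts from both sides and may share reads, so the shares are descriptions.

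Read numbers of neighbours were only loosely alike. For the 4152 detected loci with a detected nearest neighbour within 1 kb, Spearman's rho between the read counts of both was 0.32, and between their lengths 0.30. Beyond 10 kb (483 loci) the values were 0.09 and 0.08. A difference of no more than 4-fold was found for 61.3% of the near and 60.7% of the far pairs.

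Joining detected nuclear loci at gaps of at most 1 kb gave 1715 regions of 2 or more loci, which held 4760 loci, or 41.4% of the detected nuclear loci. Joined in the same way, 47.8% of all listed nuclear loci fell in regions. Detected loci are the smaller set, which by itself lowers their share, so these shares cannot be compared directly. The other 6747 detected nuclear loci stood alone. Regions had a median span of 1197 bp (quartiles 772.5 and 1814) and a median of 22 reads summed over their loci. The loci in them had a median length of 128 bp. Loci that stood alone had a median of 18 bp and 2 reads. Regions held 41.4% of the detected nuclear loci and 37.4% of nuclear reads, and loci that stood alone held 62.6% of those reads. These totals depend on where a few abundant loci lay. The 18 nuclear loci with most reads held 50% of nuclear reads, and a region of 3 loci on scaffold_699 held 13.99%. There were 145 regions of 5 or more loci and 7 of 10 or more, and the largest span was 12733 bp.

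The regions with most loci were not those with most reads. The region of scaffold_212 from 253385 to 264199 held 16 detected loci among 17 listed and had 792 reads, with at most 269 at a locus. Regions of scaffold_6 (1606898 to 1614189), scaffold_72 (1357797 to 1364032), scaffold_419 (81312 to 91252) and scaffold_6 (92825 to 98243) held 13, 11, 10 and 10 detected loci and had 37, 77, 299 and 156 reads. There were 4 regions of 10 loci, of which those with most reads are named. In each of these 5 regions at most 1 listed locus had no read. Regions were joined from detected loci at gaps of at most 1 kb and picked here for their number. That choice by itself leaves little room for loci without a read. The locus with most reads held between 18.9% and 53.8% of the reads of its region.

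By reads, the leading region was scaffold_699 from 1158 to 10023, whose 3 loci are named above and held 585957 reads, or 13.99% of nuclear reads. It was followed by scaffold_571 from 14 to 4074 (2 loci, 213177 reads), scaffold_557 from 41935 to 48111 (5 loci, 153277 reads) and scaffold_571 from 36572 to 40516 (4 loci, 144507 reads). The fifth was scaffold_685 from 32819 to 36341, with 60383 reads at 2 loci, 99.3% of them at Cluster_39111. All 5 lay on scaffolds with an extent of at most 103077 bp. Their density ran from 19791 to 75345 reads per kb of locus, against 26.2 to 130 for the 5 regions named for their number of loci. The former were ranked by their reads, so a higher density follows in part from that choice.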

How the data were processed

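The wild-type library of 10-day protonemata was used, with 1 library in its group. Per the labels' protocols, Tri-Reagent total RNA was depleted of ribosomal RNA, digested with RNase One and prepared with an Illumina small RNA kit. The labels allow 1 or 2 rounds of depletion and do not say which was used. The submitters' processing notes name Bowtie 0.12.9 and SAMtools. The sources used here state no genome build, locus caller, mapping settings or strand, nor how reads that match several places were treated. Reads of repeats may therefore be divided among loci or assigned to some only. Per the file headers, the deposited table gives for every locus its coordinates and cluster name, the count of reads without normalization, and the same count as RPM. The prefix shared by all cluster names was left out. RPM times the computed library total, rounded to whole numbers, gave back the deposited count at 99.998% of loci. The 1066015 reads outside the loci (15.2%) were not analysed here.

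Length was end minus start plus 1, and density was count over length. Length classes were 30 bp or less, 31 to 200, above 200 and up to 1000, and over 1000 bp. With 1 library no test was possible, no p-value was computed and no count model was fitted. Python 3.11.15 was used with pandas 2.3.3 and numpy 2.4.6 for tables, scipy 1.17.1 for intervals and matplotlib 3.10.9 for plots. The code was tested on simulated loci with known answers. Loci named are the 10 with most reads, the 4 leading plastid and mitochondrial loci, the 3 leading nuclear loci of each length class and in density (longer than 30 bp, at least 20 reads), the longest of each class, the 5 leading regions by loci and by reads, and the 3 leading scaffolds by loci and by reads. Other named loci, the scaffold size classes and windows, the bands of exact length and the groups of equal length were picked with their values in view. The members and classes were chosen with earlier results of these data known. The gene table at hand is of another assembly and was not used, and no genome of the build in the files was at hand, so no sequence is printed.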

Additional observations from a re-analysis of the deposited data

How the results depend on the processing

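No paired analysis was possible because there is 1 library and no test, and for the same reason no replicate could be left out. Changes below are those beyond the 95% interval of the value, or beyond 1.5 times for a count. For a share this was the Clopper-Pearson interval. For a median it was an interval from the ranked values of the loci or gaps, which treats them as independent. Without the 5 loci with most reads the plastid, mitochondrial and nuclear shares of locus reads were 11.9%, 1.95% and 86.2%. Those 5 include the 2 leading plastid loci. With only loci of at least 10 reads the plastid and nuclear shares were 28.05% and 70.6%. The share of the top 1% of loci was 91.5% without the 5 loci with most reads, 70.5% with only loci of at least 10 reads and 92.5% with nuclear loci only. Numbers of loci holding 50% and 90% of reads stayed within 1.5 times of the values given under these 3 settings.

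The minimum of 1 read set the makeup of the detected loci. With minimums of 2, 5 and 10 reads the median length was 93, 188.5 and 250 bp and the median gap 16526, 24463 and 36912.5 bp. The nuclear share of loci was 99.2%, 98.8% and 98.3% and the mitochondrial share 0.543%, 0.844% and 1.17%, in that order of minimums. The plastid share was 0.378% and 0.553% with minimums of 5 and 10. Nuclear loci of 30 bp or less made up 37.3%, 21.8% and 17.0%, those above 200 and up to 1000 bp 27.7%, 40.9% and 46.99%, and those over 1000 bp 4.01%, 6.52% and 9.20%. Those of 31 to 200 bp made up 31.02% and 30.8% with minimums of 2 and 5. With a minimum of 5 reads, 781 regions of 2 or more loci were found.

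Read density depended on its summary. The nuclear median was 41.7 reads per kb for loci longer than 30 bp and 156 for loci of at least 10 reads. Pooled over loci, density was 13997, 972 and 2180 reads per kb for plastid, mitochondrial and nuclear loci. The share of detected nuclear loci whose nearest listed locus was detected was 67.5% within 1 kb and 34.6% beyond. It was 28.7% for pairs of 30 bp or less and 87.1% for pairs over 30 bp, which were chosen after seeing the data. The other 17 values moved by less than these limits. The cause of each change was not tested, beyond the fewer loci that each stricter minimum leaves. At this depth a count of 0 does not show absence, so the loci without a read cannot be called free of double-stranded RNA.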
